A study of Mus musculus with 6 samples.

Results

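The 10 genes described here build or attach to the Z-disc, titin and the desmin filaments of heart muscle cells: Actn2, Csrp3, Ldb3, Myoz2, Tcap, Nexn, Ttn, Myom1, Des and Ankrd1. They were chosen by name, and each is read from the probe sets whose annotation gives that symbol alone. All 10 of the 22180 genes so named were measured, each by 1 probe set. The measurements are RNA levels in 6 mouse samples on Mouse Gene 2.0 ST microarrays (Affymetrix), each group being a single sample. The labels give strain DBA/2J and female sex for every sample. Induced pluripotent stem (iPS) cells, kept on feeder cells in serum and LIF, gave the undifferentiated library. Differentiating iPS cells were sampled at day 7 in 3 cultures. They spent 5 days as floating embryoid bodies and were then plated on gelatin with 1% DMSO, with 100 ng/ml NRG1 (neuregulin 1, a ligand of ERBB receptors), or with both. A differentiated culture without an additive was not analysed here. The last libraries came from cells labelled as cardiomyocytes of the neonatal and of the adult mouse heart, with no age or isolation method in the sources used here. Every value below is a log2 RMA value, so a difference of 1 is 2-fold. With 1 library per group no difference was tested and none has a replicate error, so precision is limited by how few arrays there are.

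The Z-disc is the plate that borders each sarcomere and anchors the thin actin filaments, which alpha-actinin crosslinks. Titin runs from the Z-disc to the M-band as a spring, and desmin filaments tie neighbouring Z-discs to each other and to the cell membrane. Z-disc proteins also sense stretch, and several of them, such as Csrp3 and Ankrd1, are found in the nucleus as well. Mutations in many of these genes cause cardiomyopathy. Myom1 is on the list although its protein, myomesin 1, sits at the M-band in the middle of the sarcomere.

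The labels were checked against marker genes. In the library labelled neonatal cardiomyocytes, 4 of 22 cardiomyocyte markers were at least 2-fold above the iPS library: Nppa (32.4-fold), Tnnt2 (10.7-fold), Pln (6.99-fold) and Actc1 (2.73-fold). Of the 22, 21 lay above iPS cells by any amount. In the library labelled adult cardiomyocytes 1 of 22 was at least 2-fold higher, Tnnt2, and 14 lay above iPS cells. Of all genes that reached the median of all values, 13% and 13.1% were at least 2-fold higher in the neonatal and adult libraries. The median differences of all genes from iPS cells were -0.04 and -0.02. All 13 fibroblast markers were at least 2-fold above the iPS library in each. The mean level of the 22 cardiomyocyte markers was 5.65 in iPS cells, 6.64 to 6.82 in the 3 cultures, 6.62 in the neonatal and 5.75 in the adult library. Y-linked genes were also high in the neonatal and adult libraries (Eif2s3y 6.20 and 8.15, against 2.88 to 3.32 in the others), which goes against their label as female. Xist, expressed from the inactive X chromosome, was highest in the neonatal library (8.78), lowest in the adult one (3.39) and 5.97 to 6.91 in the others. Both are therefore called the libraries labelled neonatal and adult. In bulk RNA, fewer cells of a type and less RNA per cell cannot be told apart. The only technical error that could be read was the disagreement between the 2 probe sets of other genes on the same arrays. This disagreement holds no variation between repeated samples, and it serves below as a yardstick of 1 SD, not as a test. Its SD was 0.20 for the culture with both additives minus DMSO, 0.30 for the other differences between cultures, 0.34 for adult minus neonatal and 0.55 to 0.60 against the iPS library. The table has no detection values. Csrp3, Ttn, Myoz2 and Myom1 had values near or below the median of all values (5.20) in several libraries, where a difference of log2 values may understate the true one.

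The bases just upstream of some of the genes are shown so that the reader can compare them. Actn2, Ttn, Csrp3 and Des were highest in the cultures with DMSO, and Ankrd1 was highest in the heart-derived libraries. Myom1 also had its highest values in the cultures with DMSO, and its bases are not shown. RefSeq promoter windows of build GRCm38.p6 were found for 8 of the 10 genes; Tcap and Nexn are named only. Each line gives the 250 bases that end before the annotated start, for Actn2 (chr13:12340733-12340982, minus strand), Ttn (chr2:76982548-76982797, minus strand), Csrp3 (chr7:48848052-48848301, minus strand, the more upstream of its 2 starts), Des (chr1:75360042-75360291, plus strand) and Ankrd1 (chr19:36119845-36120094, minus strand). Capitals mark the MEF2 box in Ttn and CATTCC, the M-CAT element, in Ankrd1, where it reads GGAATG because it lies on the other strand.
Actn2: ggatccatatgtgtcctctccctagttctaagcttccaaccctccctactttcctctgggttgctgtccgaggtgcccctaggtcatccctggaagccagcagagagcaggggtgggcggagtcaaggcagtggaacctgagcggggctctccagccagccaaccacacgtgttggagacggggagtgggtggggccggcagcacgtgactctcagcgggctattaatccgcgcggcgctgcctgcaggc
Ttn: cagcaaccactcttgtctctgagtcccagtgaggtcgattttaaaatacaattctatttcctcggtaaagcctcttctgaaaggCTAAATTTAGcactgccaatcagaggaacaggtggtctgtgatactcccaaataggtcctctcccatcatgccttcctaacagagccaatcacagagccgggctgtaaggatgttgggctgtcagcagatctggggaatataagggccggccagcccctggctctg
Csrp3: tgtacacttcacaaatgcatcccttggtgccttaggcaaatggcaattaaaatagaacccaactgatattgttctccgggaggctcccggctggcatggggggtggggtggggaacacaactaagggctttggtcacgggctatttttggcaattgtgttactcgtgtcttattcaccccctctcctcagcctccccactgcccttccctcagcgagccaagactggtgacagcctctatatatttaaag
Des: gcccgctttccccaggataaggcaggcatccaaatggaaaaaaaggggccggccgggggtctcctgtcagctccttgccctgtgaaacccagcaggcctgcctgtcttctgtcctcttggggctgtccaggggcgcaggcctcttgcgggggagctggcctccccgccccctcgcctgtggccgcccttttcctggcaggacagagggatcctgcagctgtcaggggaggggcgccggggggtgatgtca
Ankrd1: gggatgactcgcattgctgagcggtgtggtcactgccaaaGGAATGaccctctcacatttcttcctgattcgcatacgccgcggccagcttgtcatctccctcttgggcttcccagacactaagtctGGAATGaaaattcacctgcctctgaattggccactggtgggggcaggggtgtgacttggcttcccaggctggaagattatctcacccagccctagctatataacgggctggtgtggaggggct

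Motifs were searched on either strand, a palindrome being counted once. The M-CAT element, to which TEAD factors bind, occurred 2 times upstream of Ankrd1, in bases 210 to 205 and 123 to 118 before the start. Of the 32851 windows searched, which left out those of a single chromosome, 12.6% held it and 1.02% held it at least 2 times. It was in no other window of these genes. The MEF2 box was found in Ttn (CTAAATTTAG) and Myoz2 (CTATATATAG), against 0.508% of the windows searched. The CArG box, the site of serum response factor, was found in Ldb3 (CCATTTATGG) and Myom1 (CCATAAAAGG), against 1.47%. The 8 genes had 10 windows, Csrp3 and Ldb3 having 2 each. GATA was present upstream of 7 of the 8 genes, in 9 of the 10 windows, against 53.6% of the windows searched. CANNTG, the E-box, was upstream of 7 of 8, in 8 of the 10 windows, against 66.2%. These matches describe letters in the windows, and no binding was measured.

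Among the Z-disc proteins, Actn2, Csrp3 and Nexn differed most between libraries, and Ldb3 and Tcap least. Actn2, the muscle alpha-actinin that crosslinks actin filaments, was 6.04 in iPS cells, 6.87 with DMSO, 5.63 with NRG1, 7.00 with both, 5.68 in the library labelled neonatal and 5.28 in that labelled adult. The 2 cultures with DMSO were highest, and NRG1 alone stood with the heart-derived libraries. The gap from iPS cells to DMSO (0.83) exceeded the probe set disagreement, while the adult, NRG1, neonatal and iPS values followed each other at less than it.

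**Figure D1:**
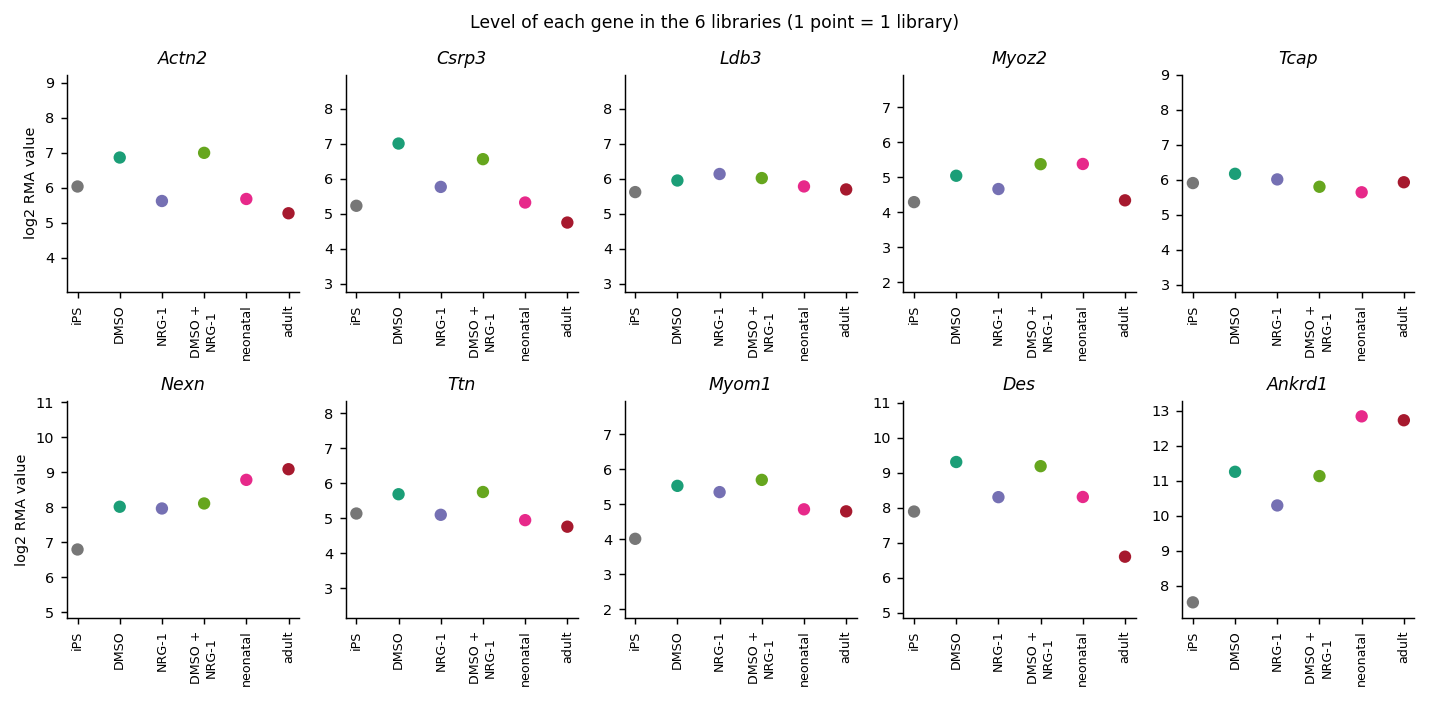
Log2 RMA value (vertical axis, the same span of 6.2 units in each panel) of the 10 genes in the 6 libraries (horizontal axis), 1 point per library and no error bars because each group has 1 library. Actn2, Csrp3, Ttn, Des and Myom1 are highest in the cultures with DMSO. Nexn and Ankrd1 are highest in the libraries labelled neonatal and adult, and Ldb3 and Tcap span 0.52 and 0.53.

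Csrp3 (muscle LIM protein), a stretch-sensing partner of alpha-actinin and titin's cap, was 5.23 in iPS cells, 7.01 with DMSO, 5.77 with NRG1, 6.56 with both, 5.32 in the neonatal and 4.75 in the adult library. It was 3.43-fold higher with DMSO and 2.52-fold higher with both than in iPS cells. All 3 cultures were above both heart-derived libraries, with NRG1 alone 0.45 above the neonatal one, within the probe set disagreement of 0.58. Csrp3 was also the gene with the largest difference between DMSO and both additives, -0.45.

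Myoz2 (calsarcin 1), which tethers the phosphatase calcineurin to alpha-actinin, was 4.30 in iPS cells, 5.05 with DMSO, 4.67 with NRG1, 5.38 with both, 5.39 in the neonatal and 4.35 in the adult library. Here the neonatal library and the culture with both additives shared the top, 0.01 apart, and adult equalled iPS cells to within 0.05. The neonatal library was 2.05-fold above the adult one.

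Nexn (nexilin), an actin-binding protein that stabilises the Z-disc, was 6.79 in iPS cells, 8.01 with DMSO, 7.96 with NRG1, 8.10 with both, 8.78 in the neonatal and 9.08 in the adult library. The 3 cultures lay within 0.14 of each other, 2.25 to 2.49-fold above iPS cells. Both heart-derived libraries were higher still, 3.97-fold and 4.90-fold above iPS cells.

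Ldb3 (Cypher or ZASP), a PDZ-LIM protein that binds alpha-actinin, was 5.62 in iPS cells, 5.95 with DMSO, 6.14 with NRG1, 6.02 with both, 5.78 in the neonatal and 5.69 in the adult library. Tcap (telethonin), which caps the Z-disc end of titin, was 5.91, 6.17, 6.01, 5.80, 5.65 and 5.93 in the same order. For these genes every step from 1 library to the next in the order of levels was smaller than the probe set disagreement. Among the 9 comparisons, only Tcap with both additives minus DMSO (-0.37) exceeded it.

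Ttn, the titin gene, was 5.14 in iPS cells, 5.69 with DMSO, 5.10 with NRG1, 5.75 with both, 4.95 in the neonatal and 4.76 in the adult library. Its range over the 6 libraries was 0.99, and here too each step between neighbours in the order of levels was within the probe set disagreement. The cultures with DMSO had the highest values, and both differed from NRG1 alone by more than that disagreement (0.59 and 0.65 against 0.30). Myom1, which links titin to myosin at the M-band, was 4.02 in iPS cells, 5.53 with DMSO, 5.35 with NRG1, 5.70 with both, 4.86 in the neonatal and 4.80 in the adult library. iPS cells were lowest and the 3 cultures highest, 2.52 to 3.21-fold above iPS cells, and both heart-derived libraries lay between, with values below 5.20.

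Des, the gene of desmin, was 7.90 in iPS cells, 9.31 with DMSO, 8.31 with NRG1, 9.19 with both, 8.31 in the neonatal and 6.61 in the adult library. The adult library was lowest of the 6, 3.26-fold below the neonatal and 2.45-fold below the iPS library. NRG1 alone and neonatal were 0.01 apart, and both cultures with DMSO stood 0.88 or more above them.

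Ankrd1 (CARP), an ankyrin repeat protein of the titin spring region and of the nucleus that is induced by stretch, was 7.53 in iPS cells, 11.26 with DMSO, 10.30 with NRG1, 11.14 with both, 12.84 in the neonatal and 12.73 in the adult library. It spanned far more than any of the other 9 genes: 6.81-fold (NRG1), 12.2-fold (both) and 13.3-fold (DMSO) above iPS cells in the cultures, and 39.8-fold and 36.8-fold in the heart-derived libraries. Neonatal and adult could not be separated (0.11 apart), nor could DMSO and both (0.12 apart). Ankrd1 is also expressed outside muscle, in fibroblasts and smooth muscle cells among others. The mean of the 13 fibroblast markers followed the same course, 6.52 in iPS cells, 8.18, 7.66 and 8.07 with DMSO, NRG1 and both, and 10.38 and 10.81 in the neonatal and adult libraries. The part of such cells in the Ankrd1 and Nexn values was not tested.

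**Figure D2:**
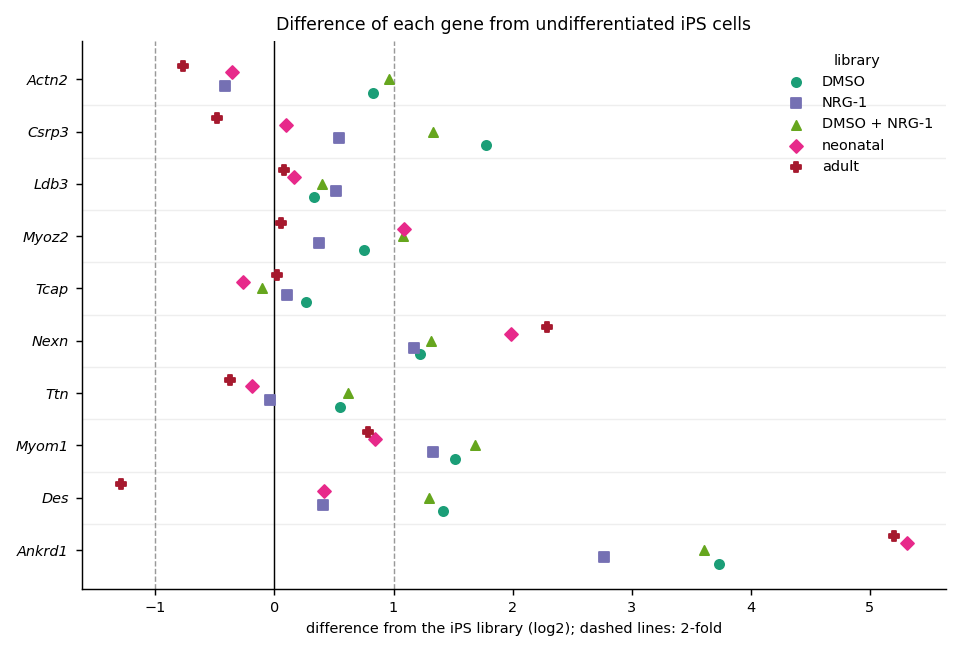
Difference of log2 values from the iPS library (horizontal axis) for the 10 genes (vertical axis), with 1 symbol for each of the other 5 libraries and dashed lines at 2-fold. Ankrd1 lies between 2.77 and 5.31, whereas in the library labelled adult Des (-1.29), Actn2 (-0.76), Csrp3 (-0.48) and Ttn (-0.38) lie below iPS cells.

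Against iPS cells, 5 of the 10 genes were at least 2-fold higher with DMSO, 6 with both additives and 3 with NRG1 alone. A gene was counted when it was at least 2-fold apart and the higher of its values reached 5.20, the median of all values. With DMSO, 5 of 10 genes were higher (Csrp3, Des, Nexn, Ankrd1 and Myom1) and 0 lower, where 13.1% of all genes that reached that level were higher and 13.3% lower; Myoz2 did not reach it. With both additives 6 of 10 were higher, the same 5 and Myoz2, and 0 lower, against 13% and 13.1% of all genes. With NRG1 alone 3 of 10 were higher (Nexn, Ankrd1 and Myom1) and 0 lower, against 11.3% and 14.5%, and Ttn and Myoz2 did not reach the level.

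The median difference over the 10 genes was 1.02 with DMSO, 1.19 with both and 0.46 with NRG1, beside medians of all genes between -0.02 and 0.00. Actn2 differed by 0.83 and 0.96 with DMSO and with both, just under 2-fold, and was past 2-fold in each after a shift to equal housekeeping genes. With NRG1, Actn2 (-0.41) and Ttn (-0.04) had the opposite sign, which turned positive under that shift (0.03 and 0.41). These comparisons share the iPS library, so their differences are not independent. Markers of other cell types were also higher in the cultures: all 7 endoderm markers and 7 of 8 epithelial markers were at least 2-fold above iPS cells in each. Of 13 fibroblast markers, 9 were so with DMSO, 7 with NRG1 and 9 with both, and 0 were lower. The share of all genes was 11.3% to 13.1%. The part of such cells in the values was not tested.

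For the library labelled neonatal, 3 of 10 genes were at least 2-fold above iPS cells (Myoz2, Nexn and Ankrd1) and 0 below, against 13% and 11.2% of all genes, and Ttn and Myom1 did not reach the level. For the library labelled adult, 2 of 10 were higher (Nexn and Ankrd1) and 1 lower (Des), against 13.1% and 14.1%, and Ttn, Myoz2 and Myom1 did not reach the level. The medians over the 10 genes were 0.29 and 0.04. Without Ankrd1 and Nexn, the highest difference in the adult library was that of Myom1, 0.78, with both its values under 5.20. The signs of Actn2, Ttn and Tcap in neonatal minus iPS turned from negative to positive under the housekeeping shift, and those of Myoz2 and Tcap in adult minus iPS, as small as 0.05 and 0.02, turned negative after cyclic loess.

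Between the heart-derived libraries, the adult one was lower for Des (by 3.26-fold) and Myoz2 (by 2.05-fold) and higher at 2-fold for 0 of 10 genes. Of all genes, 2.92% were lower and 2.52% higher in this comparison, and Ttn and Myom1 did not reach the level. Csrp3 (-0.57) and Actn2 (-0.41) also differed by more than the probe set disagreement of 0.34. The median over the 10 genes was -0.15, against 0.00 for all genes. By any amount, 8 of the 10 genes were lower in the adult library, the exceptions being Nexn (0.30) and Tcap (0.29). Cardiomyocyte markers moved with these genes: 8 of 22 were at least 2-fold lower in the adult library and 0 higher, with Nppa, the atrial natriuretic peptide, at 10.31 in the neonatal and 5.06 in the adult library. Markers of other cells differed too: 5 of 8 macrophage markers were at least 2-fold higher in the adult library, and Krt8, Krt18, Krt19 and Dsp were lower. The part of cell composition in these differences was not tested.

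The 3 cultures were next compared with one another, to describe what each additive went with. Both libraries with DMSO were above NRG1 alone by more than the probe set disagreement for Actn2, Csrp3, Des, Ttn, Myoz2 and Ankrd1. Myoz2 was 0.38 higher with DMSO, both values being under 5.20, and 0.71 higher with both additives. Nexn, Ldb3, Tcap and Myom1 differed by less than the probe set disagreement between NRG1 alone and DMSO. NRG1 alone was at least 2-fold below DMSO for Actn2 (-1.24), Csrp3 (-1.24) and Des (2.01-fold) and above it for 0 of 10 genes, where 1.78% of all genes were lower and 0.36% higher; Myoz2 did not reach the level. Des lay at the threshold and missed it after cyclic loess and after the housekeeping shift. The median difference over the 10 genes was -0.48, against -0.01 for all genes. Of the 10, 9 were below 0, the exception being Ldb3 (0.19). Under the housekeeping shift Nexn (-0.05) also turned positive.

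**Figure D3:**
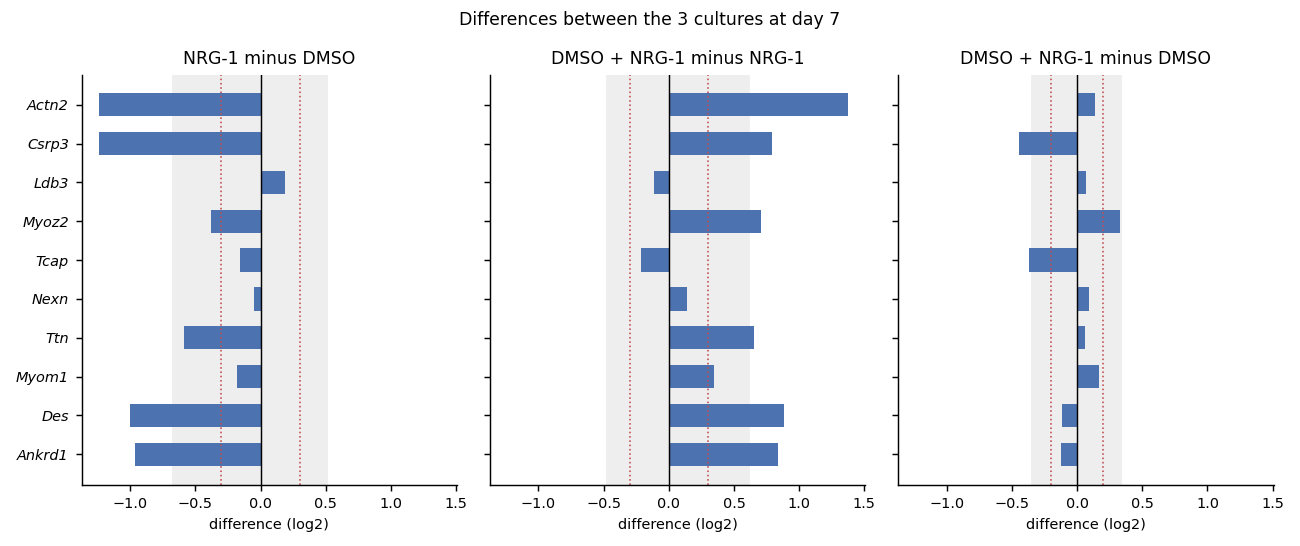
Differences of log2 values (bars, horizontal axis) of the 10 genes between the 3 cultures at day 7. Grey bands hold the middle 90% of all genes that reach 5.20, and dotted lines mark the probe set disagreement (0.30, 0.30 and 0.20); Actn2, Csrp3, Des and Ankrd1 lie beyond the band in the first panel, these with Myoz2 and Ttn in the second, and Csrp3 and Tcap just beyond it in the third.

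With both additives, Actn2 was 2.60-fold above NRG1 alone, Des 1.85-fold, Ankrd1 1.79-fold, Csrp3 1.73-fold, Myoz2 1.64-fold and Ttn 1.57-fold. At 2-fold this made 1 of 10 genes higher and 0 lower, against 1.08% and 0.293% of all genes. The median over the 10 genes was 0.68, against 0.01 for all genes. Ldb3 (-0.12) and Tcap (-0.21) were below 0 by less than the probe set disagreement. In contrast, 0 of 10 genes differed by 2-fold in either direction between both additives and DMSO alone, where 0.0455% of all genes were higher and 0.053% lower. The median there was 0.07. Csrp3 (-0.45), Tcap (-0.37) and Myoz2 (0.33) exceeded the probe set disagreement of 0.20, and the other 7 genes did not.

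A further count asked for genes at least 1.5-fold higher in each of the 2 libraries with DMSO than with NRG1 alone. This held for 5 of the 10 genes, Actn2, Csrp3, Des, Ttn and Ankrd1, and for 4.15% of the genes that reached 5.20. Ttn dropped out under the housekeeping shift. The reverse held for 0 of 10 and for 1.49% of genes. This count was chosen after the values were seen, and all its differences use the same NRG1 library, so 1 library decides it.

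Some other genes of the same structures also met this count. They were 2 of 30 further Z-disc genes, 1 of 11 M-band and titin-associated genes and 2 of 14 intermediate filament and costamere genes. In these lists 24, 9 and 13 genes reached the median of all values and could be counted. Of all genes that reached it, 4.15% met the count, and 1 or 2 genes per list are too few to compare with that share. Of the 30, 12 were higher with NRG1 than with DMSO by any amount. Those that met it are named here after their values were seen. Pdlim3, a PDZ-LIM partner of alpha-actinin, was 9.19 with DMSO, 8.79 with both and 7.70 with NRG1. Ankrd23, a relative of Ankrd1, was 6.99, 7.06 and 6.32, and Trim55, a titin-associated ubiquitin ligase, 5.63, 5.61 and 4.80. The intermediate filament genes Vim and Nes were 0.81 and 1.02 lower with NRG1 than with DMSO. Of the cardiomyocyte markers Myh6, Tnnt2, Actc1 and Pln were on that side, while Mybpc3 and Myl3 were at least 1.5-fold higher with NRG1 alone than in either culture with DMSO. Thus 4 of 22 cardiomyocyte markers were higher with DMSO by this count and 2 lower. Of the 13 fibroblast markers 3 were higher (Postn, Ddr2 and Lox) and 0 lower. Of the 8 smooth muscle markers 1 was higher, Acta2, smooth muscle actin, at 11.82, 11.85 and 11.12, and 0 lower. By any amount, 5 of these 8 were higher with NRG1 than with DMSO, with a median difference of 0.10. By the same count, 0 of 7 endoderm markers were higher with DMSO and 4 lower. The part of cell composition in the DMSO pattern was not tested.

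Setting the 3 cultures beside the libraries labelled neonatal and adult, 4 of the 10 genes (Csrp3, Ttn, Ldb3 and Myom1) had all cultures above both heart-derived libraries, and 2 (Nexn and Ankrd1) had all cultures below both. For Ldb3 all 6 of these differences (0.17 to 0.44) were within the probe set disagreement. So were those with NRG1 of Ttn (0.15 and 0.34) and Myom1 (0.49 and 0.55), and that of Csrp3 between NRG1 and neonatal (0.45). These patterns were common: 29.5% and 29.6% of all genes that reached 5.20 showed them. Des missed the first because NRG1 alone and neonatal were both 8.31, and met it after cyclic loess and after the housekeeping shift. The largest of these differences were those of Des and Csrp3 from the adult library, 2.70 and 2.26 higher with DMSO, and of Ankrd1 from the neonatal library, -2.54 with NRG1. Skeletal muscle was looked for because its sarcomeres hold most of these proteins: the mean of its 12 markers was 5.65 in iPS cells, 5.34 to 5.53 in the cultures, 5.10 in the neonatal and 5.33 in the adult library. The iPS mean was raised by 1 gene, Mylpf, at 8.17 in iPS cells and 4.22 to 4.56 in every other library. The median difference of the 12 from iPS cells was 0.12 with DMSO, -0.04 with NRG1 and -0.14 with both. The muscle-determining factors Myod1, Myog, Myf5 and Myf6 lay between 3.50 and 6.04 in all 6 libraries. Acta1, skeletal alpha-actin, which developing heart muscle also expresses, was the 1 marker at least 2-fold above iPS cells in the cultures, at 9.07 with DMSO, 9.81 with NRG1 and 9.11 with both against 7.93. Its part in the values of the 10 genes was not tested.

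The 10 genes fell into groups by the likeness of their profiles over the 6 libraries. Actn2 and Ttn had the highest Pearson correlation (0.98), and Actn2, Ttn, Csrp3 and Des were joined by values of 0.86 to 0.98. Nexn and Ankrd1 formed another pair (0.98) and correlated at or below -0.03 with these 4 genes. Ldb3 and Myom1 reached 0.86, and Tcap reached at most 0.44 with any gene. Of the 45 pairs, 5 were at or above 0.9 and 11 below 0. With 6 libraries of 6 different kinds that share 1 normalization, these values describe the profiles and were not tested.

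**Figure D4:**
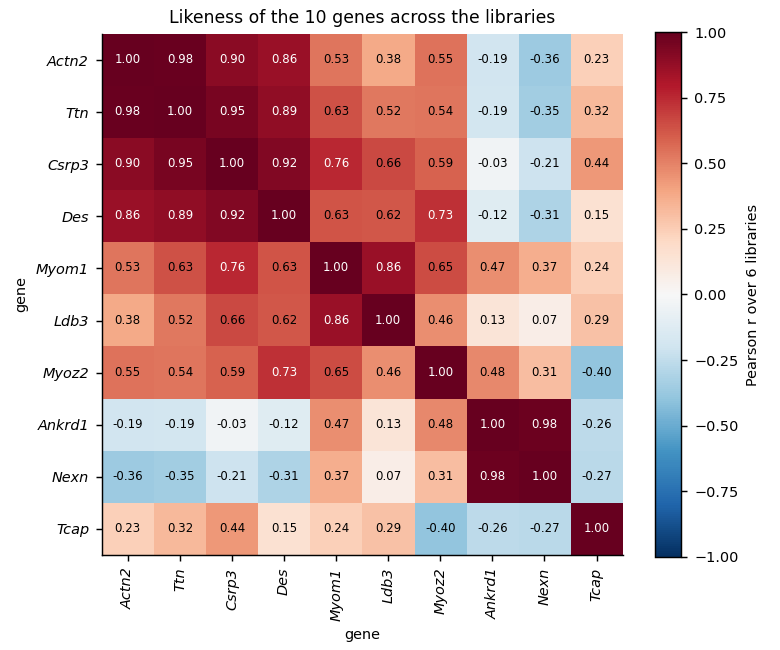
Pearson correlation of log2 values over the 6 libraries for each pair of the 10 genes (both axes list the genes; colour and number give r). Actn2, Ttn, Csrp3 and Des form a block from 0.86 to 0.98, and Nexn with Ankrd1 (0.98) stands apart from it.

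Genes with the most similar profiles were sought for the 7 genes that spanned at least 1 log2 unit, among 6677 genes of the same span. For Actn2 these were Gabrp (r = 0.987), Mlx (0.979) and Gstt3 (0.976), for Csrp3 Lamb3 (0.994), Cdc14a (0.992) and Mansc1 (0.992), and for Des Kcnn4 (0.977), the desmosomal plakophilin Pkp2 (0.977) and Lpar2 (0.975). For Myoz2 they were Pln, the inhibitor of the calcium pump (0.952), Mid1 (0.95) and Tnni1, slow skeletal troponin I (0.920). Myom1 was most like Cd82, Sertad1 and Trip11 (0.995 to 0.997), Nexn most like Fam120a, Ikbke and Ncstn (0.996 to 0.999), and Ankrd1 most like Filip1l, Ptprm and Pja2 (0.999 to 1.00). The number of genes at or above 0.95 was 6 for Actn2, 2 for Myoz2, 14 for Des and 68 for Csrp3, but 203 for Myom1, 215 for Nexn and 234 for Ankrd1. The profiles of the last 3 were thus shared by many genes.

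Of 30 further Z-disc genes, more were higher than lower against iPS cells in every library: 9 and 2 with DMSO, 8 and 2 with NRG1, 11 and 2 with both, 12 and 2 in the neonatal and 11 and 2 in the adult library, beside the shares of all genes given above. Fhl2, a LIM protein of the titin spring, was 6.59 in iPS cells and 10.41 to 10.62 in the 5 other libraries, so that it did not separate cultures from heart. Fhl1, its relative, was 7.41 in iPS cells, 8.04 to 8.47 in the cultures, and 10.20 and 9.71 in the neonatal and adult libraries. Pdlim5, a PDZ-LIM protein, was 8.50 in iPS cells and 10.39 to 11.01 elsewhere. The genes lower in all 5 were Mypn (myopalladin) and Actn3, the fast-muscle alpha-actinin, which at 8.11 in iPS cells and 5.28 to 5.60 elsewhere ran opposite to Actn2 with DMSO. Several of the genes higher in at least 1 of these libraries, such as Actn1, Pdlim1, Pdlim7 and Csrp1, also work in stress fibres of cells without sarcomeres.

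The M-band and titin-associated list, with 11 of 12 genes measured, had at most 1 gene at least 2-fold above iPS cells in any library, a share near that of all genes (11.3% to 13.1%). This was Mybpc3 (myosin-binding protein C) in the 3 cultures, and Trim63, a muscle ubiquitin ligase, was lower in the adult library by 1.23. Mybpc3 was highest with NRG1 alone (7.48, against 6.35 with DMSO, 6.84 with both and 5.30 in iPS cells), the reverse of Actn2. Among 14 of 15 measured intermediate filament and costamere genes, desmin's partner Synm (synemin) stayed between 5.89 and 6.15. The epithelial keratins Krt8, Krt18 and Krt19 and the desmosome gene Dsp (desmoplakin) were 10.41 to 12.02 in all 3 cultures. In the adult library these 4 genes lay between 5.08 and 7.32. Like Des, which is not on this list, these genes were thus higher in the cultures than in the adult library, but other genes of the list went the other way. Of the 14, 5 had all 3 cultures above both heart-derived libraries, namely Synm, Krt8, Krt18, Krt19 and Dsp. In 6 (Vim, Nes, Lmna, Dmd, Tln1 and Sgcd) all 3 cultures were below both. For Synm the cultures (5.91 to 6.01) lay above the heart-derived libraries (5.89 and 5.90) by less than the probe set disagreement (0.52 to 0.58). Of all genes that reached the median of all values, 29.5% had all 3 cultures above both heart-derived libraries and 29.6% had them below. A list of 14 genes is too short to tell its counts from these shares.

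**Figure D5:**
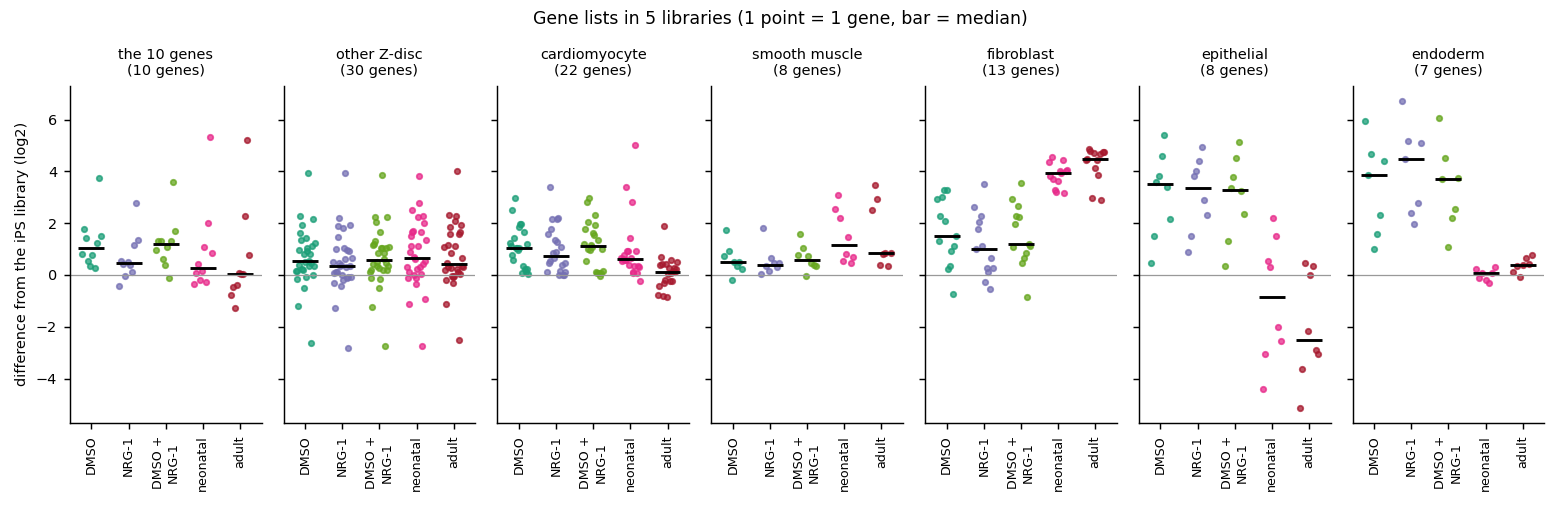
Difference of log2 values from the iPS library (vertical axis) for each gene (points) of 7 lists in the 5 other libraries (horizontal axis), with the list median as a bar. The medians of the 10 genes are 1.02, 0.46, 1.19, 0.29 and 0.04 from left to right, while fibroblast medians are 3.95 and 4.50 in the libraries labelled neonatal and adult.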

How the data were processed

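Per the submitters' processing notes, the deposited table holds log2 values that the authors made with RMA, for 41345 probe sets and 6 samples. RMA corrects background, equalises array distributions and summarises probe sets; no source used here names its software or version. Sorted columns differed by at most 0.28, so the table cannot show a shift common to most genes. A gene's value was the mean of its probe sets with 1 symbol in the platform annotation; 1 probe set naming Des with another gene was left out. Differences between libraries were taken in 9 comparisons with no test, counting genes at least 2-fold apart whose higher value reached the median of all values (5.20). The error measure was the SD of the difference between the log2 differences of the 2 probe sets of a gene, divided by the square root of 2.

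Besides the 10 genes, the text names up to 4 genes of each list with the largest range, the 3 most similar genes of each member spanning at least 1, and others chosen after their values were seen. The members and lists were chosen with earlier results of these data known. The 12 housekeeping genes, 8 of them measured, served for the housekeeping shift. Not all were stable: Hprt was at least 2-fold below iPS cells in the 3 cultures and the neonatal library. Gusb was at least 2-fold above iPS cells in both heart-derived libraries. The other lists were cardiomyocyte, fibroblast, smooth and skeletal muscle, endothelial, macrophage, epithelial, endoderm and pluripotency markers. Python 3.11.15, pandas 2.3.3 and limma 3.58.1 (cyclic loess) were used, and the counting was tested on simulated data.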

Additional observations from a re-analysis of the deposited data

How the results depend on the processing

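The median differences of the 10 genes moved by less than the probe set disagreement in all 9 comparisons under the brightest probe set, cyclic loess, the housekeeping shift and, added after seeing the data, relative to the median of all genes. The first of these changes nothing, since each gene has 1 probe set. The housekeeping shift took the median of all genes to as much as 0.44 (NRG1 minus iPS), and the medians of the 10 genes to 1.40 with DMSO, 0.91 with NRG1, 1.51 with both, 0.70 in neonatal and 0.33 in adult minus iPS. Of 90 single differences, 7 changed sign under this shift and 2 under cyclic loess, none of them 2-fold apart as deposited; the cause was not tested. The adult minus iPS median, 0.04, was -0.02 after loess. The housekeeping shift took the genes above iPS cells from 5 to 6 with DMSO and from 6 to 7 with both, and either scaling took those lower with NRG1 than DMSO from 3 to 2. At 4-fold the genes above iPS cells numbered 1, Ankrd1, in place of 5 (DMSO), 6 (both), 3 (NRG1) and 3 (neonatal). In adult they were still 2, Ankrd1 and Nexn, with 0 in place of 1 below. The 2 genes lower in adult than neonatal, the 3 lower with NRG1 than DMSO and the 1 higher with both than NRG1 became 0. At 1.5-fold the genes lower in adult than iPS were 2 in place of 1, lower with NRG1 than DMSO 5 in place of 3, and higher with both than NRG1 6 in place of 1. Requiring the 75th percentile (6.93) left 3 of 6 genes above iPS cells with both, and 1 of 2 below neonatal in adult. No filter gave the same counts. No paired analysis was possible because each group has 1 sample. Signal over background could not be judged, since the table has no background values.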
